A study of Mus musculus with 38 samples.

Results

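After depolarisation, c-Fos was mapped to many places in the neuronal genome that carried neither of the enhancer marks used here and no FosB peak. These sites were chosen in 3 steps from the 12594 positions of a combined c-Fos list that the authors deposited. Of these positions, 9187 lay in no peak of acetylated histone H3 lysine 27 (H3K27ac) with or without stimulation. Of those, 7653 also lay more than 500 bp from every one of 11830 distal positions marked by the acetyltransferase CBP and by H3K4me1, which the list's name credits to another study. These 7653 are called unmarked sites. Finally, 1656 lay inside no peak of the 4 FosB lists of depolarised neurons, which is 13.1% of all combined positions and 21.6% of the unmarked ones. The other 5997 unmarked sites lay in at least 1 of these FosB lists and are the main set for comparison. The lack of H3K27ac, of CBP with H3K4me1 and of FosB peaks is therefore how the sites were picked and not a result.

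The data are chromatin immunoprecipitation sequencing (ChIP-seq) peak lists from cortical neurons of C57BL/6 mouse embryos of day 16.5, grown for 7 days in vitro. KCl cultures were depolarised for 2 h, and unstimulated cultures were left silent. Before this, every culture spent a night in DL-AP5 (100 µM), which blocks NMDA receptors, and in TTX (1 µM), which blocks sodium channels and so action potentials. In biological samples 3 and 4, uninfected KCl and unstimulated cultures were mapped for c-Fos with the antibodies sc52 and sc7202, for FosB with sc48 and, in sample 4 only, for JunB with sc46. Biological samples 5 and 6 were all given KCl and were infected with an shRNA against c-Fos (mapped for c-Fos with sc52), against FosB (mapped for FosB with sc48) or with a control shRNA (mapped for both). H3K27ac was mapped with ab4729 in KCl and unstimulated cultures of biological samples 1 and 2, whose peaks were called on both samples merged. The level of c-Fos or FosB protein left under the shRNAs is not measured in these lists, and neuronal markers cannot be checked in them. Each of the 22 AP-1 lists had 557 to 28885 peaks. Read depth is unknown, and there is 1 library per culture, condition and antibody.

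AP-1 is a family of transcription factors that bind DNA as pairs, such as a Fos protein with a Jun protein. c-Fos and FosB are both Fos proteins that neuronal activity induces, and c-Fos, which does not pair with itself, needs a Jun partner such as JunB. H3K27ac marks active promoters and enhancers, while H3K4me1 and CBP mark enhancers more widely.

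The sites without FosB were mostly seen in few of the 6 KCl c-Fos lists. Only 36 of the 1656 sites (2.17%) lay in all 6 lists, against 1420 of the sites with FosB (23.7%). Over all combined positions this share was 24.3%. The most frequent number was 3 lists for sites without FosB (608 sites, 36.7%) and 5 lists for sites with FosB (1742 sites, 29.0%). A site without FosB was in 2 lists in 392 cases, in 4 in 400 cases, in 5 in 207 cases and in 1 in 13 cases.

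Among the 4 KCl sc52 lists alone, which the labels name as carrying the combined list, 1203 sites without FosB (72.6%) lay in exactly 2, against 33.7% of sites with FosB. No site without FosB lay in 0 sc52 lists and 26 (1.57%) lay in 1. The combined list's name may refer to a minimum number of lists, which no source used here explains, and its part in these counts was not tested. All 4 sc52 lists held 44 sites without FosB (2.66%), against 24.7% of those with FosB. The most frequent pair was biological samples 5 and 6, the infected cultures, with 571 sites (34.5%), followed by samples 3 and 5 with 423 (25.5%) and samples 3 and 6 with 203 (12.3%). Among sites with FosB, 17.5%, 11.2% and 4.92% had these patterns. The 571 sites seen by sc52 in the infected cultures alone were also found by the other antibody in uninfected cultures, in 50.3% of cases in sample 3 and in 28.7% in sample 4. For the sites with FosB of the same pattern these shares were higher, at 70.6% and 45.1%.

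Library by library, fewer sites without FosB than with FosB lay in each of the 6 KCl c-Fos lists. With sc52 the sites without FosB were found in 62.0% and 7.19% of cases in biological samples 3 and 4, against 79.7% and 29.8% of sites with FosB. With sc52 and control shRNA the shares were 84.8% and 72.9% in samples 5 and 6, against 93.4% and 87.7%. Of all combined positions, these 4 lists held 80.1%, 30%, 93% and 83.9%. Sample 4 stood low in both sets of sites, and its sc52 list was the shortest of the 6, with 6808 peaks. These sc52 shares are a description, because the combined list is attached to these libraries.

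The sc7202 antibody, to which the labels do not attach the combined list, gave the same order. It found 66.1% of the sites without FosB in sample 3 (Wilson 95% interval 63.7 to 68.3%) and 37.5% in sample 4 (35.2 to 39.9%). For the sites with FosB the shares were 89.1% and 69.1%, and for all combined positions 87.6% and 67.6%. The difference was -27.3 ± 6.01 percentage points (SD, n = 2 biological samples), larger than its spread and lower in both. The exact sign-flip permutation test, two-sided, gave p = 0.5, the smallest that 2 biological samples allow (Benjamini-Hochberg adjusted over 5 tests p = 0.5). Neither sc7202 list held 439 of the sites without FosB (26.5%, against 7.29% with FosB), and both lists held 498 of them (30.1%, against 65.4%).

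**Figure D1:**
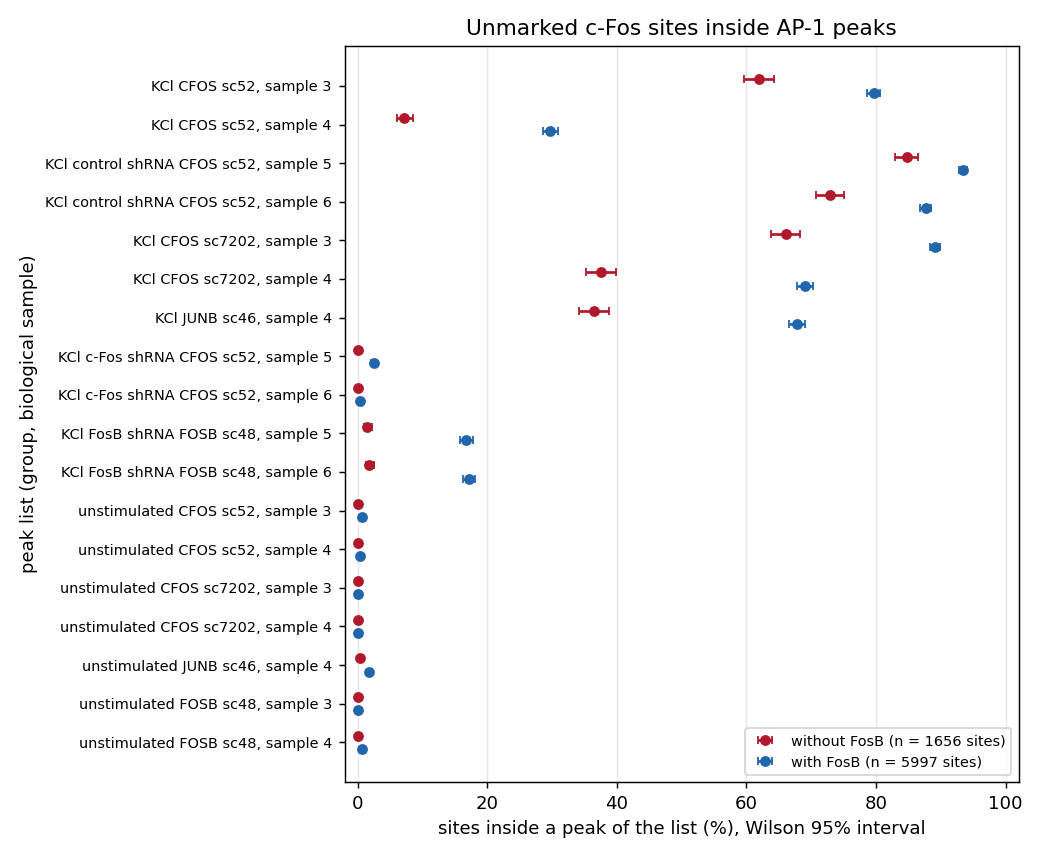
Share of unmarked c-Fos sites inside a peak of each list (x axis, percent) for sites without FosB (red, 1656 sites) and with FosB (blue, 5997 sites), by antibody and biological sample (y axis). Bars are Wilson 95% intervals, which cover counting error only. In every KCl c-Fos list and in the KCl JunB list the red point lies left of the blue one, and in the unstimulated and c-Fos shRNA lists both sets lie near 0.

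The c-Fos peaks at sites without FosB were also weaker and narrower. The authors' peak score rises as the p-value of the peak falls, and each score was turned into the percent of peaks of the same list with an equal or lower score (score percentile). Medians of score and width cover only the sites with a peak in the list. With sc52 in sample 4 these were 119 of 1656 sites without FosB and 1785 of 5997 with FosB. The median percentile at sites without FosB was 30.4 and 31.6 with sc52 in samples 3 and 4, 32.7 and 33.4 with control shRNA in samples 5 and 6, and 46.0 and 39.5 with sc7202 in samples 3 and 4. At sites with FosB it was 55.3 and 49.0, 60.6 and 63.2, and 70.9 and 62.8 in the same lists. Averaged within a biological sample, the median percentile was 34.97 ± 2.47 without FosB and 60.7 ± 3.43 with FosB (SD, n = 4 biological samples), and 70.3 ± 4.07 at c-Fos sites inside H3K27ac peaks.

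The difference between sites without and with FosB was -25.7 ± 4.13 percentile points and negative in 4 of 4 biological samples, with values from -29.8 to -20.3. The exact two-sided sign-flip permutation test gave p = 0.13, the smallest that 4 biological samples allow (adjusted over 5 tests p = 0.208). Each of the 6 libraries showed the same sign. Peaks at sites without FosB had a median width of 668 ± 83.4 bp, against 743 ± 88.3 bp at sites with FosB (SD, n = 4), a difference of -75.4 ± 10.2 bp within biological samples (exact sign-flip permutation p = 0.13, adjusted p = 0.208). Both measures come from the same peaks, and samples 5 and 6 enter by sc52 alone. The combined list, from which both sets of sites were drawn, is attached to the KCl sc52 libraries. Between sites in the same number of sc52 lists, a setting chosen after seeing the data, the score difference was -19.3 percentile points.

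**Figure D2:**
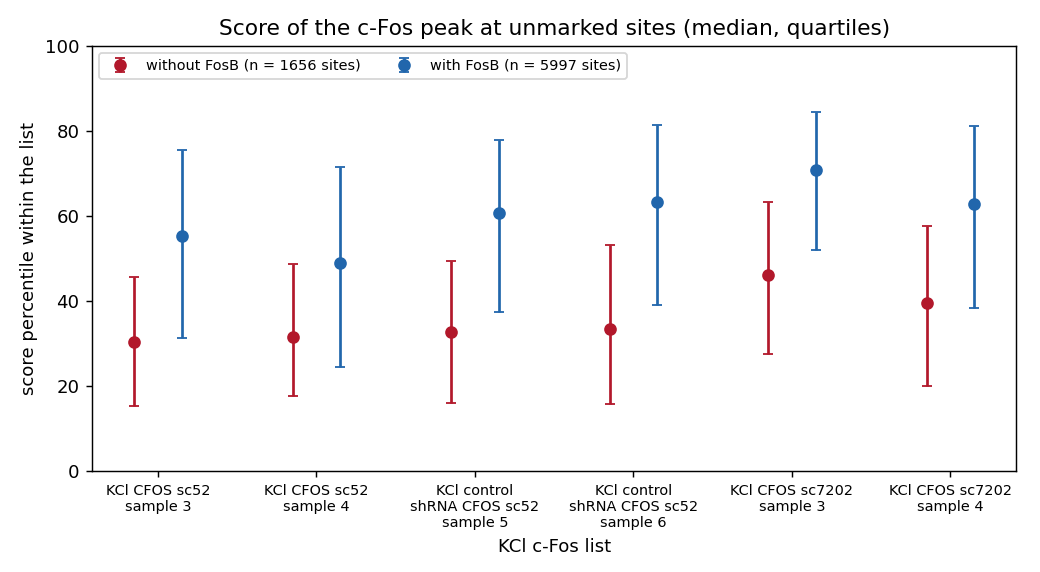
Score percentile of the c-Fos peak (y axis, percent of the list's peaks with an equal or lower score) at unmarked sites without FosB (red) and with FosB (blue), in each of the 6 KCl c-Fos lists (x axis). Points are medians and bars reach to the quartiles over the sites with a peak in the list. The red median is lower than the blue one in all 6 lists.

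The share of unmarked sites that lacked FosB went down along the c-Fos score. For this, all 7653 unmarked sites were ordered by their mean score percentile over the 4 sc52 lists, with a missing peak counted as 0. They were then cut into 10 groups of like size. In the lowest group, 430 of 766 sites lacked FosB (56.1%), and in the fifth 172 of 765 (22.5%). In the ninth it was 18 of 765 (2.35%), and in the highest 2 of 766 (0.261%). By quartiles, 926, 506, 191 and 33 sites lacked FosB, which is 48.4%, 26.5%, 9.98% and 1.72% of the sites in each quartile. Nearly all of the best-scoring c-Fos sites of unmarked chromatin thus had a FosB peak.

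JunB, a possible partner of c-Fos, was mapped in 1 library per condition and had no part in choosing the sites. The KCl JunB list of biological sample 4 held 604 of the 1656 sites without FosB, 36.5% (Wilson 95% interval 34.2 to 38.8%), against 67.8% of sites with FosB. Of all combined positions it held 66.7%. The difference was -31.3 percentage points (Newcombe 95% interval -33.9 to -28.7), with no replicate check. JunB peaks at sites without FosB had a median score percentile of 40.8, against 64.5 at sites with FosB and 74.98 at acetylated c-Fos sites.

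Between sites of like c-Fos score the difference was smaller. In the lowest score quartile 27.3% of sites without FosB had a JunB peak, against 37.0% with FosB, and in the second quartile 40.3% against 49.1%. In the third quartile the shares were 61.3% and 72.0%, and in the highest, which held 33 sites without FosB, they were 90.9% and 94.2%. Averaged over the 4 quartiles with equal weight, the difference was -8.10 percentage points, and over the 10 smaller groups, of which the top 2 held 18 and 2 sites without FosB, it was -6.90 points, in place of -31.3. The Wilson intervals of both sets overlapped in the highest quartile and not in the other 3. The sc7202 difference of -27.3 points was likewise -9.75 points within quartiles. JunB was also more frequent at sites in more c-Fos lists. It was found at 14.8% of the sites without FosB in 2 KCl c-Fos lists, 32.9% in 3, 44.3% in 4, 65.2% in 5 and 88.9% in 6 lists (32 of 36 sites).

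**Figure D3:**
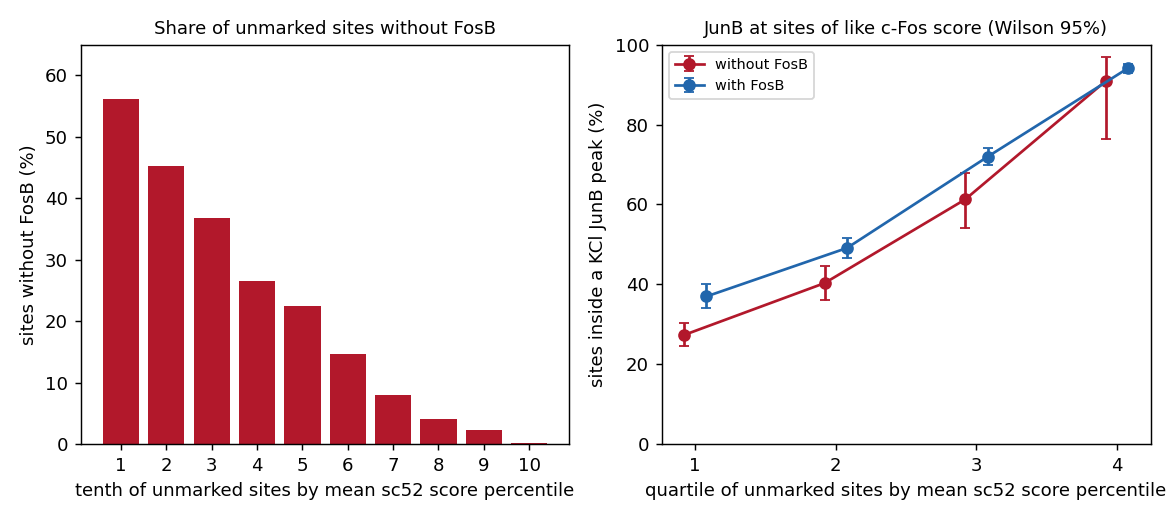
Left, share of unmarked c-Fos sites without FosB (y axis, percent) in 10 groups of the mean sc52 score percentile, lowest group first, with 765 or 766 sites each. Right, share of sites inside a KCl JunB peak in quartiles of the same score, without FosB (red) and with FosB (blue), with Wilson 95% intervals. The left bars go from 56.1% to 0.261%, and on the right both sets are higher with each quartile and lie closer together than the overall 36.5% and 67.8%.

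Within the sites without FosB, those with a JunB peak had stronger c-Fos peaks than those without JunB in each of the 6 libraries. In the 3 cultures with no JunB library, the median c-Fos score percentile with and without JunB was 31.96 and 28.9 (sample 3, sc52), 52.2 and 41.9 (sample 3, sc7202), 35.9 and 31.4 (sample 5) and 43.7 and 27.5 (sample 6). The share in a list did not always follow: in sample 5, 80.5% of the sites with JunB and 87.3% of those without had a c-Fos peak, while in sample 6 it was 81.0% and 68.3%. Of the sites without FosB, 366 (22.1%) lay in neither sc7202 list and not in the JunB list, against 4.95% of sites with FosB. At the other end, 281 (16.97%) lay in both sc7202 lists and the JunB list, against 52.6%.

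JunB was more frequent at sites without FosB that lay far from acetylated chromatin. It was found at 25% of those within 5 kb of an H3K27ac peak (Wilson 95% interval 20.3 to 30.4%, 280 sites), 32.8% between 5 and 20 kb, 37.1% between 20 and 50 kb, 44.2% between 50 and 100 kb, and 45.5% beyond 100 kb (39.9 to 51.2%, 299 sites). Sites with FosB showed the same order, with 61.9%, 62.0%, 65.9%, 72.4% and 79.8%. The median of the mean sc52 percentile at sites without FosB was 18.2, 16.7, 18.2, 17.1 and 18.5 in these distance classes, with no steady order. The share with an sc52 peak did differ by distance, in different ways between cultures. In sample 6 it was 64.6% within 5 kb and 79.6% beyond 100 kb, in sample 5 it was 90.4% and 78.6%, and in sample 4, the culture of the JunB library, it was 6.79% and 11.7%. The part of these differences in the JunB order was not tested. In the lowest score quartile alone, JunB shares without FosB were 18.1%, 24.9%, 26.8%, 30.8% and 38.0%, and in the second quartile 25%, 35.2%, 45.3%, 55.2% and 43.6%. With sc7202 in sample 4, the culture of the JunB library, the sites without FosB gave 32.9%, 37.2%, 39.6%, 38.6% and 38.8%. All JunB values come from 1 library, so this order has no replicate check.

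**Figure D4:**
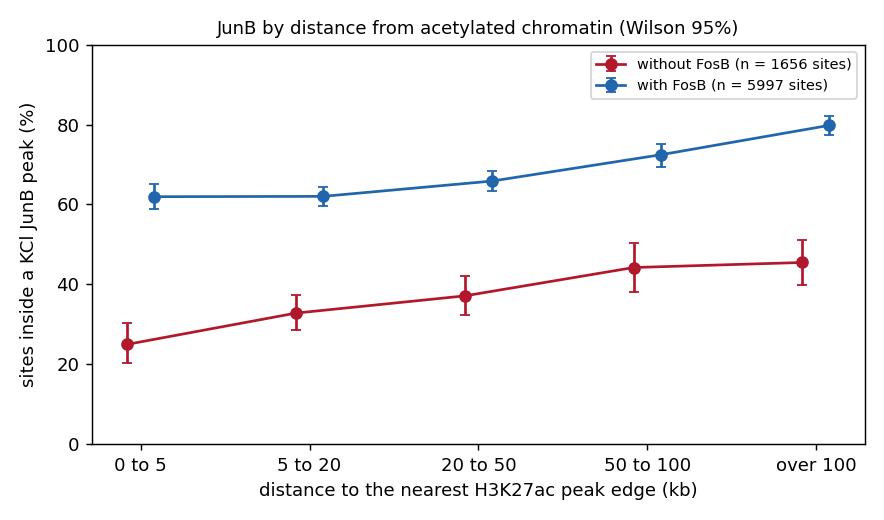
Share of unmarked c-Fos sites inside a KCl JunB peak (y axis, percent) by distance to the nearest H3K27ac peak edge of either condition (x axis, kb), without FosB (red) and with FosB (blue). Bars are Wilson 95% intervals. Shares without FosB go from 25% within 5 kb to 45.5% beyond 100 kb, and the blue points lie above the red ones in every class.

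Sites without and with FosB lay at much the same distances from H3K27ac peaks, CBP and H3K4me1 positions and other c-Fos sites. The median distance to the nearest H3K27ac peak was 24.6 kb without FosB (quartiles 8.51 and 69.8 kb) and 26.3 kb with FosB (9.11 and 73.3 kb), while the unacetylated c-Fos sites near CBP and H3K4me1 lay 14.9 kb away. The nearest CBP and H3K4me1 position lay 79.7 kb away without FosB and 79.9 kb with FosB. The nearest H3K27ac peak was one of the authors' distal peaks in 74.0% and 72.5% of cases, and a KCl peak was nearer than an unstimulated one in 56.9% and 56.2%. Another combined c-Fos site lay within 10 kb of 13.7% of the sites without FosB and 14.9% of those with FosB. That nearest neighbour was itself a site without FosB in 14.1% of cases, with FosB in 51.3%, acetylated in 24.5% and near CBP in 10.1%. These shares were near the 13.1%, 47.6%, 27.1% and 12.2% that the classes make up of all combined positions. Sites are not replicates, so these distances carry no test.

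The call "without FosB" rested to a large part on 1 library. Of the 7653 unmarked sites, 2745 (35.9%) lay in exactly 1 FosB list, and for 2073 of these it was that of biological sample 5 with control shRNA, the longest FosB list at 22933 peaks. Without that list in the rule, 3729 sites would count as free of FosB in place of 1656. The sites with FosB in only 1 list had a median best FosB score of 78.5, and 70.2% of them scored under 100. With a score of at least 100 required of a FosB peak, 4330 sites counted as free of FosB.

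Each FosB list was therefore left out in turn and the sites were sorted by the other 3, an analysis added after the data were seen. Sites without FosB in the other 3 lists lay in the left-out list in 4.33% of 1731 cases for biological sample 3, 2.19% of 1693 for sample 4, 55.6% of 3729 for sample 5 and 25.3% of 2216 for sample 6. Sites with FosB in the other 3 lists did so in 23.4%, 14.9%, 79.8% and 52.8%. Over all unmarked sites these 4 lists held 19.1%, 12.1%, 68% and 44.8%. The difference was -20.9 ± 6.45 percentage points (SD, n = 4) and negative in 4 of 4 biological samples. It is a description with no test, because all 4 lists belong to the rule. Each list also helped to sort the sites for the other 3, so the 4 differences are not independent. Within quartiles of the c-Fos score the difference was -10.1 points. In all 4 cases, sites without FosB in 3 lists had FosB less often in the remaining list. This describes how far the lists agree and is no independent support for an absence of FosB. The share itself moved with the length of the lists. With all 4 FosB lists cut to the 4899 best peaks, sites without FosB in the other 3 lay in the left-out list in 2.40%, 4.28%, 8.14% and 10.5% of cases in samples 3 to 6, against 23.6%, 29.1%, 44.6% and 54.1% of sites with FosB. The difference was then -31.5 points.

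**Figure D5:**
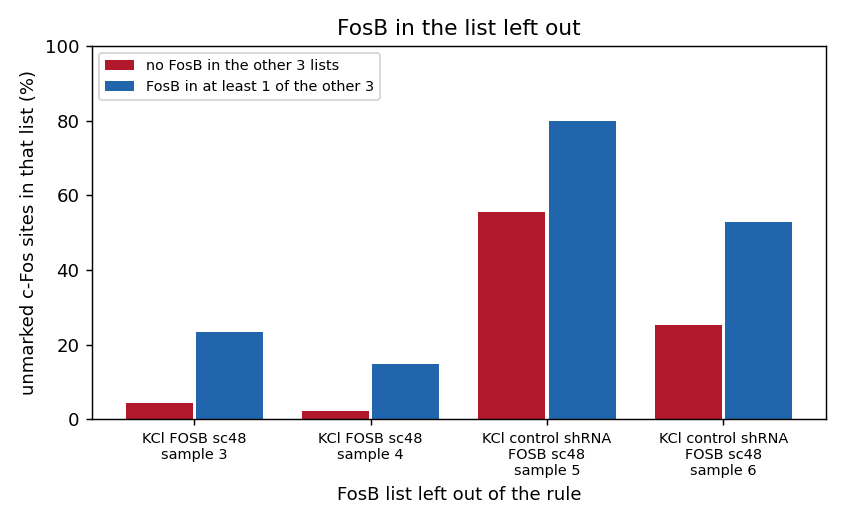
Share of unmarked c-Fos sites (y axis, percent) in the FosB list left out of the rule (x axis), for sites with no FosB peak in the other 3 lists (red) and with FosB in at least 1 of them (blue). Bars are single libraries and have no error bar. Red bars are lower than blue ones in all 4, and both are highest in sample 5 (55.6% and 79.8%).

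The FosB lists outside the rule, from FosB shRNA or unstimulated cultures, rarely held these sites. Under FosB shRNA, 25 of 1656 (1.51%, Wilson 95% interval 1.02 to 2.22%) lay in the list of sample 5 and 30 (1.81%, 1.27 to 2.57%) in that of sample 6, against 16.8% and 17.2% of sites with FosB. Of all combined positions these lists held 20.7% and 16.8%. They share cultures and antibody with the control shRNA lists of the rule. In the lowest quartile of c-Fos score the shares were 0.97% against 5.27% in sample 5 and 1.30% against 8.11% in sample 6. In the highest, with 33 sites without FosB, they were 3.03% against 34.1% and 0% against 30.8%. Only 2 sites lay in both lists, and 32 of the 53 found in either had a KCl JunB peak. The unstimulated FosB lists of samples 3 and 4 held none of the sites without FosB and 0.246% and 1.03% of all combined positions.

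Some of the sites without FosB lay beside a FosB peak. At sites with FosB, the median width of FosB peaks was 202, 216, 739 and 297 bp in samples 3 to 6, while c-Fos peaks had medians from 564 to 811 bp. Of the 1656 sites, 166 (10.02%) lay within 200 bp of a peak in 1 of the 4 FosB lists, and at 173 (10.4%) a KCl c-Fos peak holding the site overlapped such a peak by at least 1 bp. This share was 6.91% in the lowest quartile of c-Fos score, 12.8% in the second, 14.1% in the third and 51.5% in the highest (17 of 33 sites). It was 14.6% at sites with JunB and 8.08% at sites without JunB. At the 1483 sites with no overlapping FosB peak, JunB was found in 34.8% of cases, against 50.9% at the 173 with one. Of the 36 sites in all 6 KCl c-Fos lists, 26 had no overlapping FosB peak, and 23 of these had JunB.

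The sites with the most c-Fos lists and the highest score percentiles show both situations. Positions are those of genome build mm9, and which genes lie near them was not analysed here. The first lay on chromosome 1 at position 50864091 and had c-Fos scores of 162.86 and 281.34 with sc52 in samples 3 and 4, 206.92 and 387.79 in samples 5 and 6, and 247.04 and 349.64 with sc7202. Its JunB peak reached from 50863379 to 50864309 with a score of 575.6, the highest JunB score of any site without FosB. A FosB peak of sample 5, from 50863634 to 50864088 with a score of 110.43, ended 3 bp short of the position. The nearest H3K27ac peak was 90.3 kb away. Its score percentile was at least 80.2 in every KCl c-Fos list, with a mean of 90.6.

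The site at position 111160201 of chromosome 14 lay 762.7 kb from the nearest H3K27ac peak and had a mean c-Fos percentile of 75.8. Its c-Fos scores were 99.91 and 117.89 with sc52 in samples 3 and 4, 150 and 281.91 in samples 5 and 6, and 93.78 and 315.53 with sc7202, and its JunB score was 300.72. A FosB peak of sample 6 lay 121 bp away, with a score of 60.13. At position 118595527 of chromosome 4, with a mean percentile of 71.4 and a JunB score of 227, a FosB peak of sample 6 lay 48 bp away (score 57.31).

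The remaining 2 of the 5 had no peak of the 4 FosB lists of the rule nearby. The site at position 102589492 of chromosome 4 had its nearest FosB peak of the rule 29.4 kb away. Its c-Fos scores were 147.83 and 72.74 with sc52 in samples 3 and 4, 171.71 and 101.6 in samples 5 and 6, and 277.58 and 147.19 with sc7202, and its JunB score was 108.65. In sample 3 with sc7202 the peak reached from 102589029 to 102589824. The site at position 112419006 of chromosome 11 was 41.8 kb from a FosB peak of the rule, had a JunB score of 135.28 and lay in a weak FosB peak under FosB shRNA in sample 5 (score 58.92). Its c-Fos scores were 204.39 and 65.72 with sc52 in samples 3 and 4, 108.27 and 104.29 in samples 5 and 6, and 219.31 and 93.11 with sc7202. Both sites thus had c-Fos in 4 cultures and with both antibodies, and JunB in the only culture where it was mapped. That neither lay in any of the 4 FosB lists was set by the rule.

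The 5 sites with the highest JunB scores were all within 121 bp of a FosB peak. Beside those on chromosomes 1 and 14 named above, they were position 51304037 of chromosome 15 (JunB score 441.96, FosB 35 bp away), 6019007 of chromosome 3 (327.41, 55 bp) and 107937618 of chromosome 2 (302.43, 14 bp). The site on chromosome 3 also lay inside a FosB peak under FosB shRNA in sample 6. That peak had a score of 152.94, against 63.85 for the FosB peak of the rule 55 bp away. The site on chromosome 15 was 1 of only 6 sites without FosB that already had a JunB peak in silenced neurons, where its score was 147.84, and all 6 had a JunB peak after KCl. The unstimulated JunB list held 0.362% of the sites without FosB and 1.88% of all combined positions.

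Nearly none of the sites without FosB had a c-Fos peak in silenced neurons. With sc7202 they were found in 66.1% and 37.5% of cases after KCl in samples 3 and 4, against 0% and 0% in the unstimulated lists, which held 0.206% and 0.00794% of all combined positions. The difference was 51.8 ± 20.2 percentage points (SD, n = 2 pairs of lists). It is a description with no test, because the combined list is attached to KCl sc52 libraries of the same cultures, so the sites were chosen for c-Fos peaks after KCl. The unstimulated lists were short, with 1770 and 557 peaks against 28885 and 16270, and with both lists of a culture shortened to their best peaks, as many in each, the difference was 0.0302 points. For peaks with a score of at least 100 it was 14.5 points. The unstimulated sc52 lists held 1 and 2 of the sites without FosB, and 0.913% and 0.357% of all combined positions.

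Few of the sites lay in c-Fos peaks under c-Fos shRNA. In samples 5 and 6 the c-Fos shRNA lists held 2 and 0 of the 1656 sites, against 1404 and 1208 with control shRNA, a mean of 0.0604% against 78.9%. Of sites with FosB, c-Fos shRNA lists held 2.501% and 0.350%, and of all combined positions 5.09% and 0.437%. The control lists are attached to the combined list, so the difference of -78.8 percentage points is a description with no test. It was -13.7 points for peaks with a score of at least 100 and -3.71 points with lists of the same length. The median score percentile of the sites without FosB was 32.7 and 33.4 in the control lists.

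The 5 sites with a c-Fos peak in silenced neurons or under c-Fos shRNA each had it in 1 such list. At position 39547534 of chromosome 11 an unstimulated sc52 peak of sample 3 had a score of 84.38, against 56.24 after KCl. JunB was present there without stimulation (123.25) and after KCl (157.82). At position 10236616 of chromosome 15 an unstimulated sc52 peak of sample 4 had a score of 74.25. After KCl this culture had no sc52 peak at the site, while its sc7202 peak had a score of 105.92. A FosB peak of sample 6 lay 61 bp away. Under c-Fos shRNA in sample 5, position 15477709 of chromosome 4 had a peak with a score of 55.04, against 107.15 with control shRNA, and position 92777868 of chromosome 5 one of 54.26, against 229.55. The fifth is on chromosome 18 and is not named here.

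Near the limits of the rule, values are given for the 3 closest sites on each side. The sites without FosB nearest to a CBP and H3K4me1 position lay 551, 560 and 697 bp from it and were in 1, 3 and 4 KCl c-Fos lists. Those just left out lay 488, 453 and 419 bp from it and were in 1, 3 and 2 lists. The sites nearest to an H3K27ac peak lay 42, 76 and 95 bp outside it and were in 4, 4 and 3 lists, and those just left out lay 7, 8 and 21 bp inside it and were in 2 lists each. At the FosB edge, sites 1, 2 and 3 bp outside a peak were in 4, 3 and 6 lists, and sites 0, 0 and 1 bp inside were in 5, 4 and 3.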

How the data were processed

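The deposited peak lists were used unchanged. BWA and genome build mm9 are named, per the submitters' processing notes, and peak names begin with MACS, per the deposited files. No source used here gives their versions or the control library. Each peak has a score in the files the authors deposited, at least 50 in every AP-1 list, and read here, from its values, as MACS's −10 times the log10 of the p-value. Each AP-1 list comes from 1 library, and H3K27ac lists merge biological samples 1 and 2. Beyond their names, no source used here says how the combined c-Fos list or the list of CBP and H3K4me1 positions was made. The deposited lists hold no read counts, so the depth is unknown.

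The sites and the comparisons were chosen with earlier results of these data known. A site lay in a peak when its position fell between the peak's start and end, and starts are printed counting from 1. Where peaks of a list overlapped a site more than once, the best score was used. Per the labels, a number marks 1 biological sample, which pairs conditions, and libraries of 1 biological sample were averaged first. Tests were exact permutation tests over biological samples or libraries, 5 in all, with Benjamini-Hochberg adjustment. The p of 1 of them, KCl against unstimulated with sc7202, is not given, since the sites were chosen for c-Fos peaks after KCl. That of the left-out FosB list is not given either, since the lists are those of the rule and its differences are not independent. In each sign-flip test all differences had the same sign, so its p is the smallest that the number of values allows. It carries no information on the size or spread of the differences. Wilson and Newcombe 95% intervals cover counting error only. Sites on chromosome 18 were not named. Named sites were the 5 in the most KCl c-Fos lists, ties by mean score percentile, the 5 with the highest KCl JunB score, those with c-Fos in the most unstimulated or c-Fos shRNA lists, and those nearest to each limit of the rule. The overlap, percentile, stratified and permutation steps were tested on simulated data with known answers. No mm9 genome was used, so genes, DNA sequence and motifs were not analysed here. Python 3.11.15, numpy 2.4.6, scipy 1.17.1 and matplotlib 3.10.9 were used.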

Additional observations from a re-analysis of the deposited data

How the results depend on the processing

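All 77 alternatives to the 9 results kept the sign of the main value. For the number of sites and the share under FosB shRNA, which cannot be negative, this was fixed in advance. A kept sign also does not mean a kept size. With cultures as the unit the smallest possible p of each test lies above 0.05, so the threshold says nothing about stability. The sc7202 difference was -9.75 points within quartiles of c-Fos score and, chosen after seeing the data, -7.58 within 10 score groups, in place of -27.3. The KCl difference with sc7202 was 14.5 points with a score of at least 100 and 0.0302 with lists of the same length, in place of 51.8. The left-out FosB difference was -10.1 within quartiles and -31.5 with lists of the same length, both chosen after seeing the data, in place of -20.9. The number of sites without FosB was 4330 when FosB peaks needed a score of at least 100 and 5012 with FosB lists cut to the 4899 peaks of the shortest, an alternative chosen after seeing the data. It ranged from 1693 to 3729 with 1 FosB list left out. With 1 value per library, the c-Fos score difference was -24.7 percentile points and the width difference -72.8 bp. Each had an exact permutation p = 0.03125 over 6 libraries from 4 cultures. That p treats libraries of the same culture as independent, so it overstates the replication. The JunB difference was -27.2 points for JunB peaks scoring at least 100, -34.8 with FosB peaks scoring at least 100, -8.10 within quartiles of c-Fos score and, chosen after seeing the data, -6.90 within 10 score groups. The c-Fos shRNA difference was -13.7 points with a score of at least 100 and -3.71 with lists of the same length. The share of the sites in FosB peaks under FosB shRNA was 2.84% within 200 bp and 0.211% with a score of at least 100, in place of 1.66%. With biological sample as a replicate block, the KCl difference with sc7202 was 51.8 points and the c-Fos shRNA difference -78.8 points, as without the block. With 1 biological sample left out, the ranges were -27.5 to -24.4 percentile points for the score, -79.5 to -71.5 bp for the width and -23.6 to -18.7 points for the left-out FosB list. The planned motif search was not run. Unknown depth limits every absence of a peak.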

Other observations

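The sites without FosB were spread over all 20 chromosomes. They made up between 16% of the unmarked c-Fos sites on chromosome 17 (36 of 225, Wilson 95% interval 11.8 to 21.4%) and 25.6% on chromosome 11 (83 of 324, 21.2 to 30.6%), with 21.2% on the X chromosome. These intervals overlap, and no difference between chromosomes was tested.

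None of the 9 sets of 4 to 6 values checked held a sample that stood apart by Dixon's criterion. The sample nearest to it was biological sample 3, whose median c-Fos peak width at these sites was the lowest of the 4 cultures, at 547.5 bp.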
